A study of Mus musculus with 9 samples.

Results

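Overexpression of Zscan4f was compared with control in mouse embryonic fibroblasts. The comparison used 6 of the 9 libraries of the series, chosen by their titles: 3 that name overexpression of Zscan4f and 3 that name no overexpressed gene, here called control. Total RNA came from primary embryonic fibroblasts (strain C57BL/6), and the titles name the cells D4-OSKM-2ndMEFs. OSKM is the usual short name for the reprogramming factors Oct4, Sox2, Klf4 and c-Myc, and the control cells carry the same label. The other 3 libraries came from cells of the same label with overexpression of a form named Zscan4f3A. They entered the fit for the estimate of the spread, and their values are given beside those of single genes. The sources used here do not state the meaning of D4, the sequence of Zscan4f3A, the promoter or vector that drove Zscan4f, or whether control cells received an empty vector. They also do not say whether replicates were separate cultures, so p-values measure only the spread between these libraries, which may be technical.

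Zscan4 proteins combine a SCAN domain, through which they pair with other proteins, with zinc fingers that bind DNA. The mouse genes sit in a cluster on chromosome 7 and are known for a brief burst of expression when the embryo first switches on its own genome, and for passing expression in embryonic stem cells. They are also known for a part in telomere maintenance and for helping the early steps of reprogramming. Zscan4f (ENSMUSG00000070828.10, chromosome 7, 11397915 to 11402318 on GRCm38) measured 0.33, 0 and 0.96 TPM (transcript abundance scaled for gene length and depth) in the control libraries. The Zscan4f libraries measured 570, 565 and 558 TPM and the Zscan4f3A libraries 827, 836 and 654 TPM. The overexpressed gene thus separated the groups without overlap, and its log2 fold change was 8.68 (adjusted p = 1.6e-07, SE 0.21). Reads can be split among the near-identical loci of the cluster, and Zscan4c measured 0, 0 and 0.366 TPM in control, 117, 118 and 113 TPM with Zscan4f and 188, 191 and 0 TPM with Zscan4f3A. Zscan4d and Zscan4e stood at 0 to 0.11 TPM in control and 13.9 to 19 TPM with Zscan4f, and they too were listed at 0 in Zscan4f3A replicate 3 but not in the other Zscan4f3A libraries. The calls of Zscan4c, Zscan4d and Zscan4e were lost without any 1 control or Zscan4f library (adjusted p up to 0.12). These genes and Zscan4a were tested only through the Zscan4f libraries, a limit explained below, so their values are descriptions. Zscan4a was listed at 0 in each control library and at 5.14, 4.54 and 9.04 TPM with Zscan4f (adjusted p = 0.084). It was at 0, 17 and 0 TPM in the Zscan4f3A libraries, and without the second of these the adjusted p was 0.00024.

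Aligned sequence, estimated from coverage, ran from 6.604 to 8.394 gigabases in the 6 libraries and was 3.311 in Zscan4f3A replicate 3. Without counts in the files, the depth behind any 1 value is unknown. Fibroblast markers were expressed as the label says, 14 of 14 passing the filter, with a summed level of 12493 to 12753 TPM in control and 13020 to 13197 with Zscan4f. Of these 14, Col1a2, Pdgfra and Dcn were called higher and Col1a1, Col3a1, Pdgfrb, Vim, Twist1 and Postn lower. The call of Vim was lost without Zscan4f replicate 1 or 3 (adjusted p up to 0.054) and that of Col3a1 without Zscan4f replicate 3 or control replicate 2 (up to 0.053). The summed level of endothelial markers was 46.9 to 49.3 TPM in control and 60.9 to 64.3 with Zscan4f, with Tek and Flt1 called higher, Erg called lower (7.81, 5.6 and 5.91 TPM in control and 0.795, 0.931 and 1.4 TPM with Zscan4f) and Pecam1, Cdh5, Kdr and Emcn under 1 TPM in all 6 libraries. That of macrophage markers was 18.9 to 21.9 and 26.7 to 27.8 TPM, with Cd68 called higher, Cd14 called lower (a call lost without any 1 library other than Zscan4f3A replicate 3, adjusted p up to 0.14) and Adgre1, Csf1r, Ptprc, Aif1 and Fcgr1 under 1 TPM in all 6. That of neural markers was 419 to 436 and 388 to 400 TPM, with Gap43 and Ncam1 called lower and Nes, Tubb3 and Dcx called higher (Dcx not without control replicate 3 or Zscan4f replicate 1). Pluripotency markers summed to 0.432 to 0.491 TPM and 0.993 to 2.07 TPM, with Dppa3, Dppa5a and Tdgf1 listed at 0 in all 6 libraries and 0 of 8 passing the filter. Nanog alone held most of that sum, at 0.311, 0.4 and 0.421 TPM in control and 1.01, 0.759 and 1.96 TPM with Zscan4f, and it was not tested. Of 10 early-embryo markers other than Zscan4 found in the files, 5 were listed at 0 in all 6 libraries (Tcstv1, Tcstv3, Usp17lb, Tdpoz1 and Tdpoz4). The summed level of these markers was 144 to 154 TPM in control and 166 to 170 TPM with Zscan4f. The 1 marker tested, the translation factor Eif1a, held nearly all of it and was called higher, at 144, 148 and 154 TPM and 170, 168 and 166 TPM, a call lost without any 1 Zscan4f library or control replicate 1 or 2 (adjusted p up to 0.11).

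The change with Zscan4f was broad and mostly of modest size. Of 15837 genes tested, 2922 (18.5%) were called, meaning a Benjamini-Hochberg adjusted p under 0.05 in limma, with 1384 (8.74%) higher and 1538 (9.71%) lower than control. Counts of called members in the lists below are to be read beside these shares. The 3 libraries of one group did not overlap those of the other in 6050 genes (38.2%). That was so for 1383 of the 1384 genes called higher and 1537 of the 1538 called lower. Absence of overlap in a called gene below is therefore a description that adds no evidence to the call. Only 891 genes (5.63%) were called with a fold change of at least 1.5, 376 of them higher and 515 lower. Fold changes are on the log2(TPM + 1) scale, which understates the change of low genes. Of the 891 genes, 622 changed by 1.5 to 2-fold, 253 by 2 to 4-fold and 16 by more than 4-fold. Genes were tested if they reached 1 TPM in 3 of the 9 libraries, and 441 did so only through the Zscan4f libraries, with fewer than 3 of the other 6 at that level. A gene of this kind could be tested only if it was expressed with Zscan4f, and 69 of them were among those called higher. Dsg2, Pkp3, Cldn4, Crb3, Elf3, Spint1, Erbb3, Mmp13, Il15, Dcx and Cabp5 below are such genes, as are Zscan4a, Zscan4c, Zscan4d and Zscan4e above. The values of all these genes are descriptions. In the same way 479 genes passed only through the control libraries, 35 of them called lower, and Krt5, Cdh7, Col23a1 and Col9a3 are of that kind. Their values are likewise descriptions. The median fold was 1.3 among genes called higher and 1.37 among genes called lower.

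The median level was 32.8 TPM for genes called higher, 22.7 TPM for genes called lower and 15.4 TPM for the others. Genes called higher held 12.5 to 12.6% of all TPM in the control libraries and 15.5 to 15.6% in the Zscan4f libraries. Genes called lower held 13.9 to 14.2% in control and 10.4 to 10.5% with Zscan4f. Above 100 TPM, 18.6% of genes were called higher and 13.6% lower, whereas below 5 TPM 4.82% were called higher and 6.59% lower. Called genes were spread over the autosomes and the X chromosome, from 14.6% of tested genes on chromosome 12 to 23.1% on chromosome 19. Among 355 long intergenic noncoding genes, 12 were called higher and 25 lower, and among 649 processed pseudogenes 24 and 6. Pseudogene reads can come from the parent genes. For 1773 of the 2922 genes (60.7%) the call held whichever 1 of the 9 libraries was left out. With Zscan4f3A in place of control as the reference, 2395 genes (15.1%) were called. That comparison shares the Zscan4f libraries with this one, so its values are given for single genes and set side by side only.

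**Figure D1:**
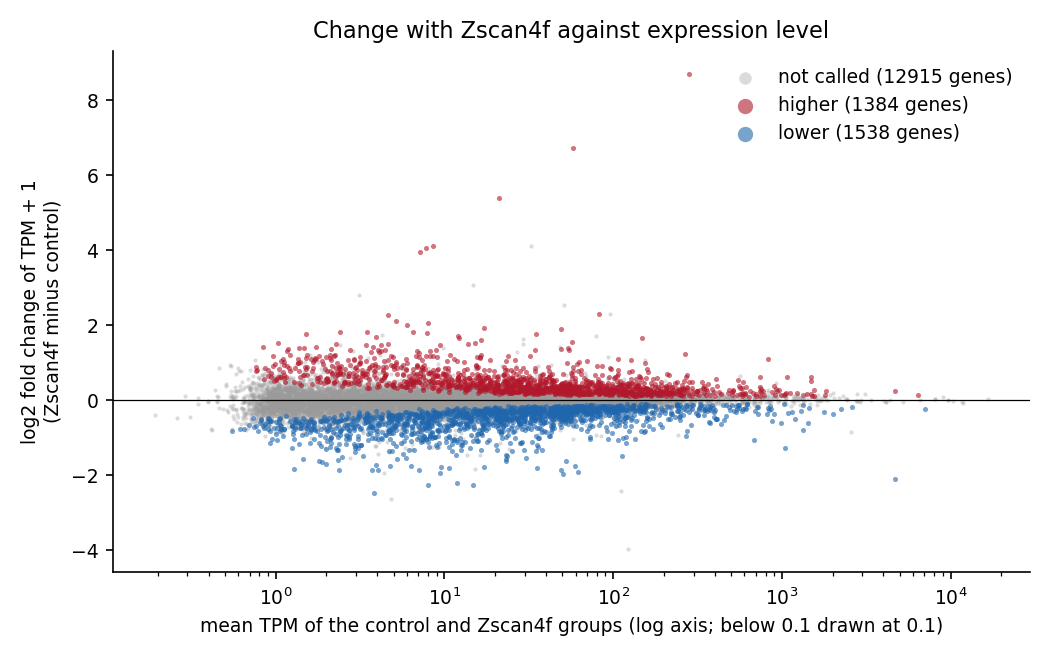
Log2 fold change of Zscan4f against control (vertical axis) plotted against the mean TPM of the control and Zscan4f groups (horizontal log axis, values below 0.1 drawn at 0.1) for 15837 genes, 1 point a gene, with the 1384 genes called higher and the 1538 called lower in colour. Called genes lie on both sides of 0, and most lie within a 1.5-fold change.

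Desmosome genes rose together, while tight junction genes and claudins moved in both directions. Desmosomes are the rivet-like junctions that anchor keratin filaments between epithelial cells. Of 12 desmosome genes listed, 11 were tested, 2 of them (Dsg2 and Pkp3) only through the Zscan4f libraries. Of the other 9, 8 were called higher and 0 lower, with a median log2 fold change of 0.82 against -0.0029 over all genes. Dsg2, a desmosomal cadherin, measured 0.789, 0.575 and 0.742 TPM in control and 4.16, 3.66 and 3.69 TPM with Zscan4f. Its partner Dsc2 measured 6.1, 6.93 and 5.92 TPM in control and 12.1, 11.9 and 11.7 TPM with Zscan4f. For Dsc2 the log2 fold change was 0.82 (SE 0.09, adjusted p = 0.00046). Pkp2, a plakophilin of the desmosomal plaque, rose from 4.2, 3.34 and 3.87 TPM to 9.93, 9.29 and 10 TPM (log2 fold change 1.17, SE 0.09, adjusted p = 8.9e-05). Evpl and Ppl, plakins that tie desmosomes to the cornified envelope, rose by 0.91 and 0.44 on the log2 scale (adjusted p = 0.00024 and 0.0049). Jup, the plakoglobin shared by desmosomes and adherens junctions, was far more abundant than these and rose from 163, 163 and 157 TPM to 204, 205 and 210 TPM. Perp was not called (adjusted p = 0.15). The call of Pkp1 was lost without any 1 control library, Zscan4f replicate 1 or 3 or Zscan4f3A replicate 2 (adjusted p up to 0.12), and that of Pkp3 without control replicate 2 or 3 or any 1 Zscan4f library (up to 0.11).

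Tight junctions seal the space between epithelial cells. Of 18 tested members of the tight junction and polarity list, 8 were called higher and 2 lower (Cgnl1 and Prkci). Of the 8, Crb3 was tested only through the Zscan4f libraries. Whichever 1 library was left out 6 of the higher calls held, and that of Prkci was lost without Zscan4f replicate 2 or 3 or any 1 control library. With a filter at 5 TPM, which removes low genes, 5 were called higher. Cgn, the junction adaptor cingulin, measured 1.63, 1.78 and 1.94 TPM in control and 4.75, 4.86 and 3.72 TPM with Zscan4f. Its relative Cgnl1 went the other way, from 69, 69.4 and 75 TPM to 48.7, 47.7 and 47.3 TPM. The groups overlapped in neither gene, with log2 fold changes of 0.96 (adjusted p = 0.001) for Cgn and -0.56 (adjusted p = 0.00031) for Cgnl1. Claudins, the strands of the tight junction, were tested in 5 of 22 cases and also split. Cldn4, tested only through the Zscan4f libraries, stood at 0.436, 0.538 and 0.0639 TPM in control and 1.53, 2.31 and 2.39 TPM with Zscan4f, and Cldn1 fell from 9.99, 10.7 and 10.9 TPM to 3.95, 4.6 and 4.69 TPM. Cxadr and F11r, immunoglobulin-type adhesion proteins of the junction, each rose by 0.71 on the log2 scale (adjusted p = 0.00076 and 0.0013). Cdh1, the cadherin of epithelial adherens junctions, stood at 14.2, 14.2 and 13.8 TPM in control, 21.7, 23.5 and 21.1 TPM with Zscan4f and 14.3, 15 and 15.7 TPM with Zscan4f3A, with no overlap between Zscan4f and either other group (log2 fold change 0.61, SE 0.06, adjusted p = 0.00028).

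Among keratins, the filament proteins of epithelia, 17 of 55 were tested, 8 were called higher and 3 lower. Among the 3, Krt5 was tested only through the control libraries. Krt14 (chromosome 11, 100203162 to 100207548), typical of basal cells of stratified epithelia, measured 27, 29.5 and 28.8 TPM in control and 82.6, 83.4 and 90 TPM with Zscan4f. Krt17, a keratin of stressed and appendage epithelia, measured 5.23, 5.7 and 4.89 TPM in control and 11.7, 12.6 and 14.3 TPM with Zscan4f. Both separated the groups without overlap, with log2 fold changes of 1.55 (adjusted p = 1.4e-06) and 1.14 (adjusted p = 0.00013). Krt80, named after its values were seen, was higher as well, at 10.7, 19.7 and 17 TPM in control and 58.2, 52.1 and 52.5 TPM with Zscan4f. Krt1, a keratin of the suprabasal epidermis, went down from 3.1, 3.54 and 3.34 TPM to 1.32, 1.34 and 1.71 TPM (log2 fold change -0.82, adjusted p = 0.0016). The 8 calls of higher genes held whichever 1 library was left out, as did that of Krt1. Krt5 lost its call without any 1 control library or Zscan4f replicate 1 or 2 (adjusted p up to 0.087) and Krt79 without control replicate 1 or Zscan4f replicate 2 or 3 (up to 0.063).

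Small proline-rich proteins are cross-linked into the cornified envelope of the skin, and 4 of 6 tested members were called higher, 3 of them whichever 1 library was left out. Sprr1a measured 7.4, 8.64 and 6.26 TPM in control and 14.8, 18 and 16.3 TPM with Zscan4f (log2 fold change 1.05, adjusted p = 0.0022). Among factors that direct epithelial genes, Grhl3 was called higher and Tead3 lower, and Elf3 was tested only through the Zscan4f libraries. Elf3 measured 0.236, 0.133 and 0.387 TPM in control and 2.22, 1.82 and 2.22 TPM with Zscan4f. In the Zscan4f3A libraries Elf3 was at 0.157, 0.517 and 0.402 TPM, within or just above the control range. Grhl2, Ovol1 and Esrp1, other regulators of epithelial identity, stayed below 1 TPM in all 6 libraries and did not pass the filter. With the genes under 5 TPM removed, Grhl3 stayed in the test and Elf3 did not.

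The summed level of 15 epithelial markers was 122 to 125 TPM in control, 259 to 263 TPM with Zscan4f and 130 to 133 TPM with Zscan4f3A. Of these, 10 were tested, Cldn4 and Spint1 only through the Zscan4f libraries, and of the other 8, 6 were called higher and 0 lower. The summed level of 12 keratinocyte markers was 117 to 121, 207 to 223 and 128 to 140 TPM in the same order. Of 9 tested ones 3 were called higher and 2 lower, including Krt5, tested only through the control libraries. The marker lists share Krt8, Krt18, Dsp, Krt14, Krt16 and Dsg3 with the junction and keratin lists, and none of their genes was listed at 0 in all 6 libraries. In bulk RNA, more cells of a type and more RNA per cell cannot be told apart, and the part of such cells in the junction and keratin values was not tested.

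**Figure D2:**
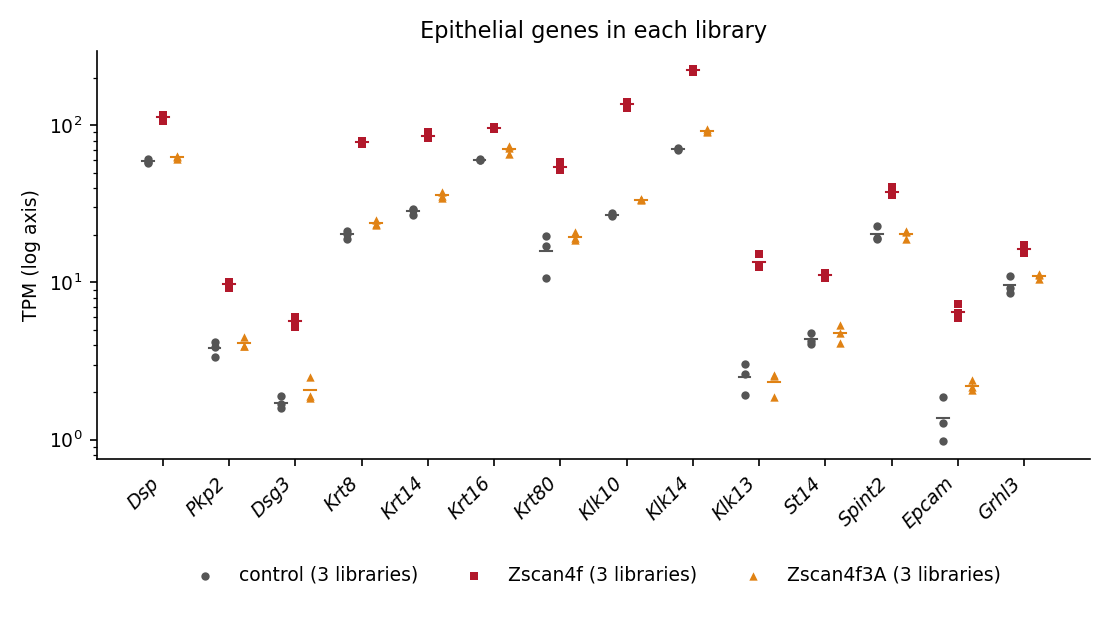
TPM on a log axis of epithelial genes in each of the 9 libraries, 1 point a library, with a short line at the mean of each group of 3. For genes such as Krt14, Dsp and St14 the 3 Zscan4f points sit above the control points, while the Zscan4f3A points sit near control.

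Kallikrein-related peptidases, secreted serine proteases of epithelia whose genes lie side by side on chromosome 7, were among the higher genes. Of 25 members listed, 6 were tested, 4 were called higher and 0 lower, and the 4 calls held whichever 1 library was left out. To show the neighbourhood of their starts, the 120 bases from 140 to 21 before each RefSeq start are printed for these 4 genes, and for 2 genes called lower (Islr and Gstm1) whose window holds the letters TGCACAC reported for Zscan4 binding. Capitals mark TGCACAC or CACACACA on the opposite strand. The stretches come from RefSeq GRCm38.p6, read 5′ to 3′ on the strand of the gene, and overlap no annotated exon. Those of Klk13, Klk11 and Klk10 lie within the span of an annotated gene of the opposite strand, and that of Islr within the span of Islr itself, which has a longer transcript. The stretches are chr7:43690278-43690397 (plus strand), chr7:43712427-43712546 (plus), chr7:43774477-43774596 (plus), chr7:43780914-43781033 (plus), chr9:58158575-58158694 (minus) and chr3:108017994-108018113 (minus).
Klk14: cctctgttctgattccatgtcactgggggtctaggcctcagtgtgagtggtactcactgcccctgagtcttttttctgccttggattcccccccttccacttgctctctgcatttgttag
Klk13: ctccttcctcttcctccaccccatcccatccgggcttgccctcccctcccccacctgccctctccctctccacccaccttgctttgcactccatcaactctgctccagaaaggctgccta
Klk11: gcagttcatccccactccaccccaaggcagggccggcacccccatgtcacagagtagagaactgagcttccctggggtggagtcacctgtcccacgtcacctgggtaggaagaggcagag
Klk10: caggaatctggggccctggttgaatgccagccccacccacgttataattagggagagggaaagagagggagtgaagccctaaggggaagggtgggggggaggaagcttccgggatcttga
Islr: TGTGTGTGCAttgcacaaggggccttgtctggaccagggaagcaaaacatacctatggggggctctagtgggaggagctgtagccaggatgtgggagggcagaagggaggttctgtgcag
Gstm1: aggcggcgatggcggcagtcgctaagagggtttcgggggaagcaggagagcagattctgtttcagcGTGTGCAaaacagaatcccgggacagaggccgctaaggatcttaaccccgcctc
In the 250 bases before the start none of the 4 kallikrein genes held TGCACAC or CACACACA on either strand. Islr held TGCACAC at bases 137 to 131 before its start, overlapping CACACACA at bases 140 to 133 and 142 to 135. Gstm1 held TGCACAC at bases 74 to 68. Over all 32851 RefSeq windows of that length, 1206 (3.67%) held TGCACAC and 1165 (3.55%) CACACACA. These matches are descriptions of letters. Islr and Gstm1 were chosen because they hold TGCACAC and the kallikreins because they were called higher, so the contrast between them follows from the choice. Where a gene had several RefSeq starts, only the one farthest upstream was read. A comparison of shares between called and other genes was void, since windows were matched for 79.4% of tested protein-coding genes.

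Klk14 (chromosome 7, 43690418 to 43695536) measured 71.6, 69.9 and 70.9 TPM in control, 218, 226 and 227 TPM with Zscan4f and 94.5, 92 and 90.8 TPM with Zscan4f3A. The 3 groups did not overlap, with the Zscan4f libraries highest, and the log2 fold change against control was 1.64 (SE 0.03, adjusted p = 1e-07). Klk11 measured 1.14, 2.54 and 0.977 TPM in control and 4.92, 4.21 and 3.74 TPM with Zscan4f (log2 fold change 1.10, SE 0.22, adjusted p = 0.0093). Klk10 measured 26.7, 26.4 and 27.6 TPM in control and 128, 140 and 141 TPM with Zscan4f, and Klk13 measured 1.92, 3.01 and 2.62 TPM in control and 12.8, 12.6 and 15.2 TPM with Zscan4f. The 4 genes stood at very different levels, and in each the Zscan4f libraries lay above the control libraries. Islr, whose stretch is printed above, fell from 6.87, 7.29 and 7.24 TPM to 0.388, 0.318 and 0.7 TPM.

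Among membrane-anchored serine proteases and their Kunitz inhibitors, 9 of 17 were tested, St14 and Spint2 were called higher, as was Spint1, tested only through the Zscan4f libraries, and Htra1 and Prss23 lower. St14, the membrane protease matriptase, and its inhibitor Spint2 rose together. Spint2 measured 18.9, 23 and 19.3 TPM in control and 36, 37.2 and 40.5 TPM with Zscan4f (log2 fold change 0.86, adjusted p = 0.00026). Spint1, the other matriptase inhibitor, measured 0.462, 0.0398 and 0.233 TPM in control and 1.08, 1.48 and 1.31 TPM with Zscan4f. Spink6, a Kazal-type inhibitor of kallikreins named after its values were seen, measured 1.68, 2.6 and 2.71 TPM in control and 9.07, 12.3 and 10.6 TPM with Zscan4f.
Htra1, a secreted protease of the matrix, moved the other way, from 66.3, 78.3 and 70.6 TPM to 46.5, 42.8 and 44.8 TPM.

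Integrins, the receptors that hold cells to the matrix, changed in both directions. Of 20 tested genes of the integrin family, 7 were called higher and 5 lower (60% against 18.5% over all genes), 5 and 5 of them whichever 1 library was left out. Itgb4 (chromosome 11, 115974709 to 116008412), the beta chain of the hemidesmosome integrin, measured 68.5, 69.8 and 64.9 TPM in control and 144, 141 and 150 TPM with Zscan4f. Its alpha partner Itga6 measured 48.8, 47.1 and 68.8 TPM in control and 122, 112 and 80.1 TPM with Zscan4f. Itgb4 separated the groups by a wide gap (log2 fold change 1.09, SE 0.04, adjusted p = 1.4e-06), whereas the gap for Itga6 was narrow and its call was lost without control replicate 1 or 2 or Zscan4f replicate 1 or 2 (log2 fold change 0.92, SE 0.22, adjusted p = 0.02, up to 0.072 without 1 library). Itga3, a laminin-binding chain, rose from 4.48, 4.19 and 4.52 TPM to 8.42, 8.31 and 8.99 TPM, and stood at 4.39, 4.33 and 4.34 TPM with Zscan4f3A. Itga7, another laminin-binding chain, rose by 0.58 on the log2 scale (adjusted p = 0.0029), Itga1 by 0.50 (adjusted p = 0.0042) and Itgb8 by 0.41 (adjusted p = 0.0044). Itga5, a fibronectin receptor chain, rose by 0.14 (adjusted p = 0.031), and its call was lost without any 1 control or Zscan4f library (adjusted p up to 0.092).

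The lower integrins were Itga9, Itga2, Itga4, Itga8 and Itgb1. Itga9, which binds tenascin and related matrix proteins, measured 16.7, 17.5 and 17.6 TPM in control and 10.8, 9.13 and 9.94 TPM with Zscan4f. Itga4, a receptor for fibronectin, measured 9.42, 8.54 and 8.88 TPM in control and 6.01, 5.37 and 6.07 TPM with Zscan4f. Both fell without overlap of the groups, by 0.74 and 0.55 on the log2 scale (adjusted p = 0.00021 and 0.0014). Itgb1, the common beta chain and the most abundant of the 5, fell by 0.17 (SE 0.03, adjusted p = 0.0036), from 890, 914 and 908 TPM to 819, 806 and 793 TPM, and the Zscan4f3A libraries stood at 841, 810 and 814 TPM, nearer to Zscan4f than to control.

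Laminins, the trimers of the basement membrane, were exchanged in part. All 11 were tested, 2 were called higher and 3 lower, and these 5 calls held whichever 1 library was left out. Lama5, the alpha chain of many epithelial basement membranes, measured 40.8, 39 and 40.8 TPM in control and 77.6, 70.8 and 77.6 TPM with Zscan4f. Lama2, the alpha chain of muscle and mesenchymal basement membranes, measured 48, 48.5 and 54.5 TPM in control and 19.5, 18.5 and 19.2 TPM with Zscan4f. In control Lama2 stood above Lama5 in each library, and with Zscan4f Lama5 stood above Lama2 in each library. The log2 fold changes were 0.89 (SE 0.05, adjusted p = 1.8e-05) for Lama5 and -1.35 (SE 0.06, adjusted p = 3.6e-06) for Lama2. In the Zscan4f3A libraries the levels were nearer each other, at 45.5, 42.2 and 46.2 TPM for Lama5 and 41.4, 39.4 and 38.5 TPM for Lama2. Lama3, the chain of laminin-332 in the skin, rose by 0.69 (adjusted p = 0.00049), Lamc3 fell by 0.66 (adjusted p = 0.0028) and Lamb1 fell by 0.17 (adjusted p = 0.0049).

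**Figure D3:**
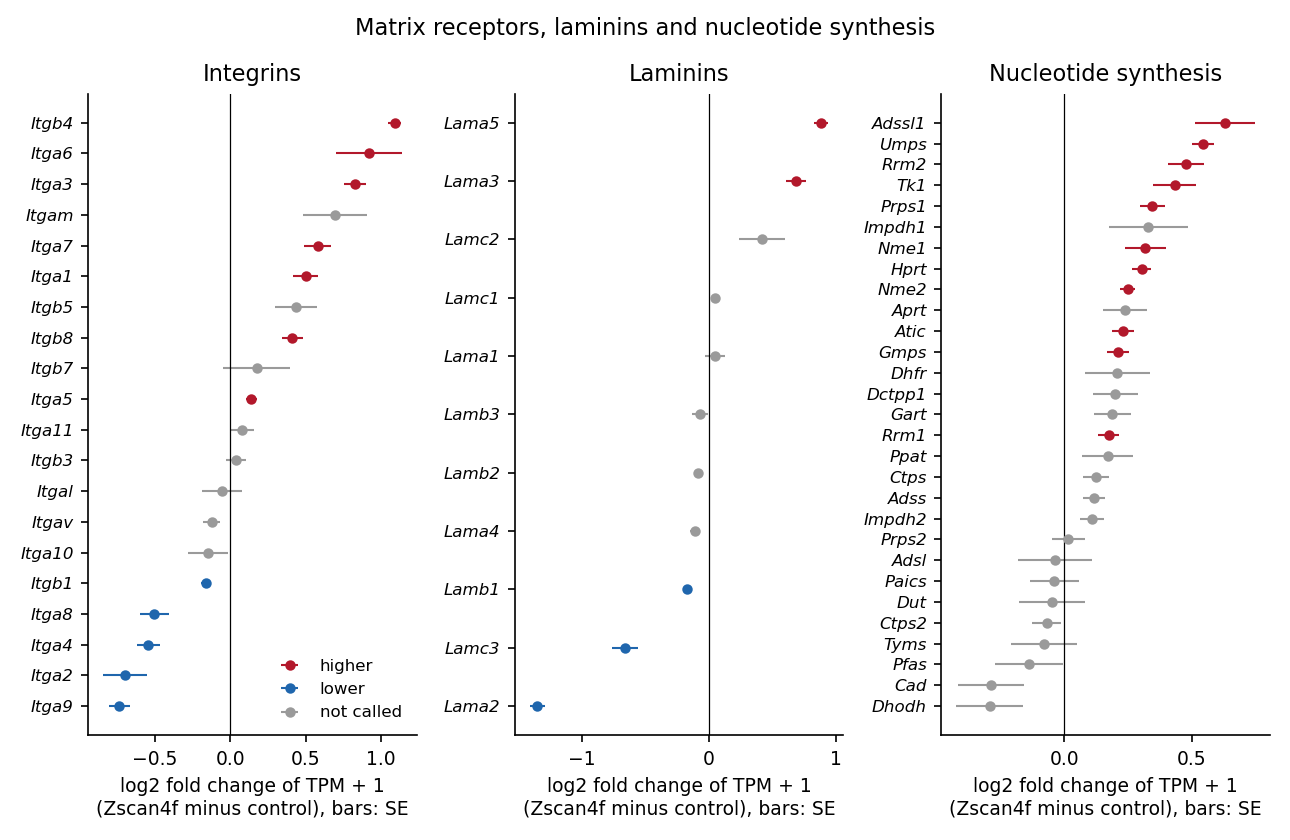
Log2 fold change of TPM + 1, Zscan4f minus control (horizontal axis), of each tested integrin, laminin and nucleotide synthesis gene, with bars of 1 SE and colours for called higher, called lower and not called. Itgb4 lies at 1.09 and Lama2 at -1.35, and the 11 called nucleotide synthesis genes all lie to the right of 0.

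Most collagens fell. Of 44 collagen genes, 31 were tested, 2 were called higher (Col1a2 and Col4a6) and 22 lower, with a median log2 fold change of -0.30. Among the 22, Col23a1 and Col9a3 were tested only through the control libraries. Whichever 1 library was left out the call of Col1a2 and 16 of the lower calls held, and that of Col4a6 was lost without control replicate 2 or 3 or Zscan4f replicate 1 or 3. The 2 chains of type I collagen, which assemble into 1 trimer, went in opposite directions. Col1a2 (chromosome 6, 4504814 to 4541544) measured 4336, 4282 and 4161 TPM in control and 5091, 5015 and 5043 TPM with Zscan4f. Col1a1 (chromosome 11, 94936224 to 94953042) measured 2792, 2802 and 2683 TPM in control and 2399, 2468 and 2479 TPM with Zscan4f. The groups did not overlap in either gene, with log2 fold changes of 0.25 (SE 0.03, adjusted p = 0.00027) and -0.17 (SE 0.03, adjusted p = 0.0029). Col1a1 was not called under quantile normalization (adjusted p = 0.089).

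The fibril collagen Col5a1 fell by 0.53 on the log2 scale (adjusted p = 6.6e-06), from 546, 529 and 528 TPM to 368, 367 and 376 TPM. Its trimer partner Col5a2 was not called (adjusted p = 0.98) and stood at 601, 605 and 603 TPM in control and 611, 594 and 603 TPM with Zscan4f, with overlapping groups. Among basement membrane chains Col4a2 measured 816, 819 and 802 TPM in control and 635, 614 and 638 TPM with Zscan4f, and Col4a5 fell by 0.30 (adjusted p = 0.00091). Col16a1, a minor collagen that sits on fibrils, fell from 47.7, 50.5 and 47.3 TPM to 22.5, 24.4 and 23.9 TPM. Col28a1 fell from 22.3, 21.5 and 21.3 TPM to 9.96, 9.52 and 9.34 TPM, and Col27a1 from 8.53, 7.29 and 7.06 TPM to 2.76, 2.26 and 3.17 TPM. These 3 were below the control range in every Zscan4f library, with Zscan4f3A values of 47.7, 44.8 and 50.6 TPM for Col16a1, 19.6, 19.5 and 19.9 TPM for Col28a1 and 6.78, 6.33 and 7.32 TPM for Col27a1. Of the genes that modify and fold collagen, 2 of 23 tested were called higher, near the share over all genes (8.74%), and 6 lower, together 34.8% against 18.5%. The higher ones, P4ha3 and P4hb, did not hold, with 0 to 2 called when 1 library was left out, fewest without control replicate 1 or 2 or Zscan4f replicate 1 or 3. Fkbp10, a prolyl isomerase of the endoplasmic reticulum, fell by 0.70 (adjusted p = 8.9e-05), from 267, 232 and 230 TPM to 146, 148 and 151 TPM.

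Elastic fibres, which give tissues recoil, are built of elastin on a scaffold of fibrillin microfibrils and are cross-linked by lysyl oxidases. Of 22 genes listed and tested, 3 were called higher and 12 lower, 2 and 11 of them whichever 1 library was left out (Ltbp1 lost the call without control or Zscan4f replicate 1, control replicate 2 or Zscan4f replicate 3, and Emilin2 without any 1 Zscan4f library or control replicate 1 or 2). The lysyl oxidases split: Lox rose by 0.20 (SE 0.03, adjusted p = 0.0016), from 1044, 1024 and 1052 TPM to 1203, 1183 and 1189 TPM, while Loxl2 fell by 0.64 (adjusted p = 5.1e-06), from 224, 235 and 231 TPM to 148, 147 and 145 TPM. Loxl3 fell by 0.65 (adjusted p = 0.00034). Fbn1, the fibrillin of the scaffold, rose by 0.17 (adjusted p = 0.011), whereas the microfibril proteins Mfap4 and Mfap5 fell by 0.92 and 0.83 (adjusted p = 0.00031 and 0.0039). Mfap4 measured 20.2, 20.6 and 21 TPM in control and 9.42, 12.5 and 9.73 TPM with Zscan4f. Fbln5, which brings elastin to the scaffold, measured 892, 933 and 933 TPM in control and 701, 690 and 728 TPM with Zscan4f. Ltbp4 and Efemp1, also of the fibre, fell by 0.39 and 0.50 (adjusted p = 0.00037 and 4e-05).

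**Figure D4:**
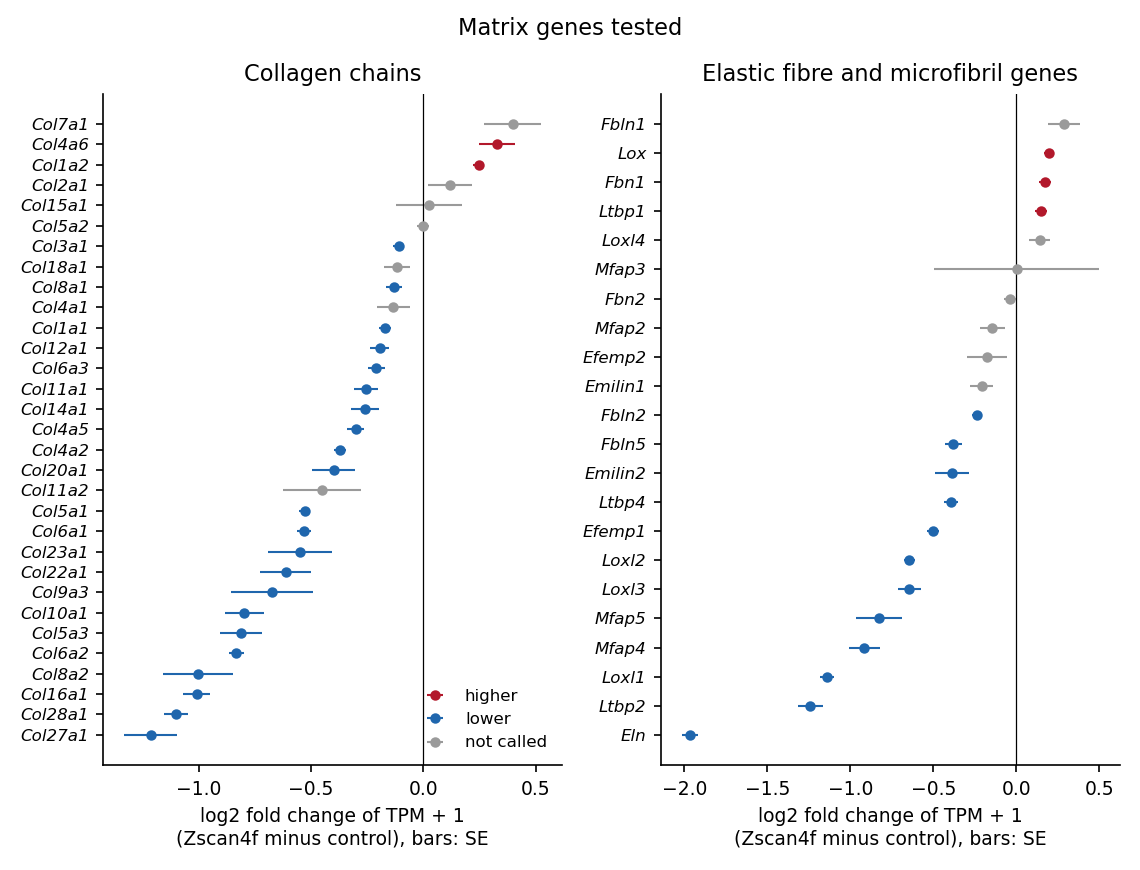
Log2 fold change of TPM + 1, Zscan4f minus control (horizontal axis), of the 31 collagen and 22 elastic fibre genes tested, with bars of 1 SE and colours for called higher, called lower and not called. Most collagens lie to the left of 0, whereas Col1a2 lies at 0.25 and Lox at 0.20.

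Proteoglycans followed the collagens with exceptions. Of 23 tested, 3 were called higher (Dcn, Sdc4 and Cspg4) and 10 lower, 8 of the latter whichever 1 library was left out. Dcn, the small leucine-rich proteoglycan decorin, measured 1233, 1251 and 1223 TPM in control and 1752, 1767 and 1750 TPM with Zscan4f, with 1326, 1300 and 1206 TPM in the Zscan4f3A libraries. Its close relative Bgn, biglycan, measured 2251, 2267 and 2250 TPM in control and 1610, 1822 and 1834 TPM with Zscan4f. The order of the 2 genes was therefore kept in control (Bgn above Dcn) and lost in Zscan4f replicate 1, where Dcn was above Bgn. The log2 fold changes were 0.51 (SE 0.04, adjusted p = 4.2e-05) for Dcn and -0.36 (SE 0.08, adjusted p = 0.012) for Bgn.
Ogn, Prelp and Fmod, leucine-rich proteoglycans that bind collagen, all fell. Ogn measured 34.5, 36 and 34.4 TPM in control and 11.9, 10.7 and 10.8 TPM with Zscan4f, and Fmod fell by 1.12 on the log2 scale (adjusted p = 4.4e-06). The cell-surface glypican Gpc3 measured 47.3, 53.1 and 49.7 TPM in control and 22, 20.8 and 20.8 TPM with Zscan4f, and Sdc3, a syndecan, fell by 0.70 (adjusted p = 2.6e-06), while Sdc4 rose by 0.30 (adjusted p = 0.00041). Hapln1, a link protein that ties proteoglycans to hyaluronan, went from 2.6, 3.24 and 3.95 TPM in control to under 0.5 TPM in each Zscan4f library.

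Enzymes that build and sulfate the sugar chains of proteoglycans changed in both directions. Of 37 genes of glycosaminoglycan synthesis, all tested, 8 were called higher and 8 lower (43.2% against 18.5% over all genes), 5 and 6 of them whichever 1 library was left out. Without Zscan4f replicate 1, 2 or 3 or control replicate 2 the number called higher fell to 5. The carbohydrate sulfotransferase Chst1 measured 9.61, 9.5 and 9.32 TPM in control, 21.9, 24.5 and 23.6 TPM with Zscan4f and 11.2, 11.7 and 11.6 TPM with Zscan4f3A. Chst3, which sulfates chondroitin, measured 4.22, 4.15 and 3.86 TPM in control and 8.26, 7.15 and 8.08 TPM with Zscan4f. Chst12, another chondroitin sulfotransferase, fell from 68, 64 and 64 TPM to 47, 50.7 and 45.9 TPM. The 3 enzymes thus moved without overlap of the groups, by 1.21, 0.80 and -0.44 on the log2 scale (adjusted p = 6.7e-06, 0.00034 and 0.0016). Xylt1, which starts the chains, fell by 0.70 (adjusted p = 0.0097), and Sulf2, which removes sulfate from heparan sulfate outside the cell, fell from 356, 359 and 363 TPM to 276, 268 and 280 TPM.

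Matrix proteases of the ADAMTS family were called higher in 2 and lower in 6 of 14 tested genes, 5 of the latter whichever 1 library was left out. Of the higher ones Adamts4 held and Adamts7 was lost without any 1 Zscan4f library or control replicate 1 or 3. Adamts10 measured 39.2, 38.7 and 38.4 TPM in control and 16.5, 17.9 and 16.9 TPM with Zscan4f. Adamts4, an aggrecanase, measured 9.83, 10.2 and 9.51 TPM in control and 15, 14.3 and 14.8 TPM with Zscan4f. The log2 fold changes were -1.14 (adjusted p = 1.1e-05) and 0.53 (adjusted p = 0.00041), and neither gene's groups overlapped. Of 16 tested matrix metalloproteases and ADAMTS-like genes, 2 were called higher (Mmp13, and Mmp23, lost without Zscan4f replicate 2 or control replicate 2) and 6 lower. Mmp2, a gelatinase, fell from 207, 193 and 192 TPM to 118, 102 and 114 TPM, and Mmp16, a membrane-type enzyme, fell by 1.11 (adjusted p = 5.2e-05). Mmp13, a collagenase tested only through the Zscan4f libraries, stood at 0.684, 0.8 and 0.728 TPM in control and 3.19, 3.61 and 3.69 TPM with Zscan4f. Mmp14 was not called (adjusted p = 0.086).

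Matricellular proteins, which signal from the matrix, were called higher in 4 and lower in 10 of 22 tested genes, 9 of the latter whichever 1 library was left out. Of the higher ones Spp1 held, and Wisp2, Thbs2 and Thbs3 did not, the count of 4 falling to 1 or 2 without any 1 control or Zscan4f library. Nid1, which links laminin to collagen IV, measured 352, 354 and 349 TPM in control and 201, 189 and 201 TPM with Zscan4f. Nov measured 52.4, 48.1 and 49.2 TPM in control and 28.5, 27.5 and 27.7 TPM with Zscan4f. Spp1, osteopontin, went up from 335, 354 and 345 TPM to 406, 416 and 445 TPM. All 3 separated the groups, with log2 fold changes of -0.83 (adjusted p = 1.7e-06), -0.82 (adjusted p = 1.1e-05) and 0.29 (adjusted p = 0.0033). Over the same samples the fibroblast marker sum was a little higher with Zscan4f than in control, as given above. That sum is itself made largely of matrix genes, among them Col1a2 and Dcn, which were called higher. Of its 14 genes 6 were called lower, so the sum is not a measure of fibroblast content apart from the matrix genes. The part of fibroblast content in the fall of matrix genes was not tested.

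Signalling through TGF-beta and BMP is a known driver of matrix synthesis. Of 42 tested genes of that pathway, 4 were called higher, near the share over all genes (8.74%), and 13 lower. Together they were 40.5% of the list, against 18.5% over all genes. The 13 lower calls held whichever 1 library was left out, while the 4 fell to 2 without Zscan4f replicate 1 or control replicate 2. Among ligands, Tgfb3 fell from 55, 54.6 and 57.4 TPM to 29.4, 30.8 and 31 TPM (log2 fold change -0.85, adjusted p = 1.8e-05), and Tgfb1 was not called (adjusted p = 0.15). The receptor Tgfbr2 fell by 0.17 (adjusted p = 0.011). The signal carrier Smad3 measured 32.1, 32.7 and 33.3 TPM in control and 22.1, 21.7 and 21.6 TPM with Zscan4f, and the inhibitory Smad6 fell by 0.44 (adjusted p = 0.01). Among secreted regulators, Ltbp2 fell from 52.7, 49.9 and 50 TPM to 22.1, 18.6 and 22.3 TPM, the BMP antagonist Grem1 from 26.5, 29.1 and 28.5 TPM to 15.6, 14.5 and 16 TPM, and Fstl1 from 1736, 1709 and 1729 TPM to 1145, 1094 and 1128 TPM. Each Zscan4f library lay below each control library in these genes. Chrd, another BMP antagonist, moved the opposite way by 0.31 (adjusted p = 0.013).

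In the Wnt list, 3 of 30 tested genes were called higher, near the share over all genes (8.74%), and 9 lower, together 40% against 18.5%. Of the lower ones in this list, 6 kept the call whichever 1 library was left out. Its secreted frizzled-related inhibitors split. Sfrp2 measured 154, 159 and 162 TPM in control and 75.7, 81.2 and 82.6 TPM with Zscan4f, and Sfrp1 measured 43.6, 46.1 and 46.6 TPM in control and 69.2, 69.5 and 68.1 TPM with Zscan4f. Sfrp2 stood above Sfrp1 in each library, by a much wider gap in control than with Zscan4f. Nkd2, an inhibitor inside the cell, measured 9.89, 9.84 and 9.52 TPM in control and 24.9, 22.3 and 21.1 TPM with Zscan4f. Notum, which removes the lipid of Wnt ligands, rose by 0.51 (adjusted p = 0.0073), and the ligand Wnt5a fell by 0.39 (adjusted p = 0.011).

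The FGF list had 1 gene called higher and 7 lower of 22 tested, 36.4% against 18.5% over all genes. Etv4 and Etv5, factors switched on by FGF signalling, fell by 1.37 and 0.40 on the log2 scale (adjusted p = 0.00067 and 0.00063). Etv4 measured 7.51, 7.8 and 6.88 TPM in control and 2.48, 1.46 and 3.02 TPM with Zscan4f. The feedback inhibitors Spry2 and Spred2 fell by 0.40 and 0.38 (adjusted p = 0.0034 and 0.0021), and the receptor Fgfr1 by 0.41 (adjusted p = 0.0048). The called higher gene was the ligand Fgf10, at 3.04, 3.24 and 3.58 TPM in control and 5.32, 4.88 and 5.42 TPM with Zscan4f. Fgf3, another ligand and not on that list, was among the larger rises, at 7.29, 8.52 and 7.22 TPM in control and 25.5, 23.2 and 27.4 TPM with Zscan4f (log2 fold change 1.61, adjusted p = 3.1e-05). In the Hedgehog list 0 of 9 tested genes were called higher and 4 lower: Ptch1, the receptor, fell by 0.67 (adjusted p = 0.00063) and Smo, the transducer, by 0.45 (adjusted p = 0.00016), while Gli3 lost the call without control replicate 1 and Gas1 without control replicate 2 or Zscan4f replicate 2 or 3 (adjusted p up to 0.054 and 0.061).

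The IGF and ErbB lists had more genes called lower than higher. In the IGF list 2 of 16 tested genes were called higher, falling to 1 without any 1 Zscan4f library or control replicate 2 or 3, and 7 lower. Igf1 measured 52.8, 48.4 and 54.1 TPM in control and 30.6, 29 and 25.6 TPM with Zscan4f, and the binding protein Igfbp3 measured 925, 931 and 913 TPM in control, 453, 438 and 444 TPM with Zscan4f and 759, 776 and 779 TPM with Zscan4f3A. The 3 groups of Igfbp3 did not overlap, and the Zscan4f libraries were the lowest (log2 fold change against control -1.05, SE 0.03, adjusted p = 1.6e-07). In the ErbB list the ligands Tgfa and Btc fell by 1.28 and 1.20 (adjusted p = 0.00012 and 0.00023). Tgfa measured 4.37, 4.52 and 5.43 TPM in control and 1.26, 1.56 and 1.28 TPM with Zscan4f. Erbb3, a receptor of neuregulins tested only through the Zscan4f libraries, stood at 0.89, 0.813 and 0.919 TPM in control and 1.85, 1.77 and 2.07 TPM with Zscan4f. Lrig1 and Lrig3, which damp ErbB receptors, fell by 0.85 and 0.65 (adjusted p = 0.011 and 0.0011). Of the 14 other tested ErbB genes, 0 were called higher and 4 lower, the latter 2 with a filter at 5 TPM.

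Notch genes were called higher in 4 and lower in 4 of 19 tested, 42.1% against 18.5% over all genes. Notch4, a receptor, measured 9.81, 11.6 and 10.9 TPM in control and 19.6, 22.1 and 20 TPM with Zscan4f. Nrarp, a feedback inhibitor, measured 3.57, 3.46 and 3.71 TPM in control and 6.68, 7.7 and 8.13 TPM with Zscan4f. The coactivator Maml2 fell by 0.64 (adjusted p = 0.00019). Imprinted growth genes, expressed from 1 parental copy, were called higher in 2 and lower in 9 of 20 tested, 6 of the latter whichever 1 library was left out. Peg3, a zinc finger gene, measured 69.4, 64.6 and 63.7 TPM in control and 47.2, 41.5 and 45.1 TPM with Zscan4f, and the noncoding Meg3 fell by 0.68 (adjusted p = 0.0042). Grb10, a brake on insulin and IGF receptors, measured 7.39, 7.97 and 7.84 TPM in control, 3.61, 4 and 3.89 TPM with Zscan4f and 5.31, 5.25 and 4.85 TPM with Zscan4f3A, so the 3 groups were separate. Plagl1, a zinc finger factor, moved the other way, from 157, 136 and 150 TPM to 193, 191 and 194 TPM, and Peg10, the other one called higher, lost the call without Zscan4f replicate 1 or 3 or control replicate 3.

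Of 33 tested transcription factors of mesenchymal cells, 0 were called higher and 7 lower, 21.2% against 18.5% over all genes, and the 7 calls held whichever 1 library was left out. Among protein-coding genes alone 11 were called lower. Nfix (chromosome 8, 84699876 to 84800344) measured 156, 136 and 212 TPM in control and 63.8, 50.8 and 59.1 TPM with Zscan4f, with the spread of the control libraries the larger. Scx, the tendon factor scleraxis, measured 16.3, 19.4 and 17.9 TPM in control and 7.43, 6.65 and 7.75 TPM with Zscan4f. Emx2 measured 38.6, 40.7 and 39.6 TPM in control, 16.4, 17.8 and 18.8 TPM with Zscan4f and 23.2, 22.4 and 22.3 TPM with Zscan4f3A. For Emx2 the Zscan4f3A libraries lay nearer to Zscan4f than to control, and the difference between Zscan4f and Zscan4f3A was -0.34 (adjusted p = 0.0053) against -1.12 (adjusted p = 7.5e-06) between Zscan4f and control. Meox2, Hic1, Mkx and Twist1 fell by 0.76, 0.63, 0.42 and 0.25 (adjusted p = 0.0013, 0.0021, 0.0051 and 0.0069).

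Nuclear receptors were called higher in 1 and lower in 6 of 28 tested, 25% against 18.5% over all genes. Nr2f1, an orphan receptor of mesenchyme and neural crest, measured 21.4, 20.5 and 20.6 TPM in control and 9.92, 11.2 and 8.41 TPM with Zscan4f. Thra, the thyroid hormone receptor alpha, fell from 187, 190 and 181 TPM to 114, 116 and 119 TPM, and Nr3c1, the glucocorticoid receptor, by 0.49 (adjusted p = 0.0044). Nr1h3, the liver X receptor alpha, measured 5.29, 3.92 and 6.61 TPM in control and 9.98, 9.45 and 9.64 TPM with Zscan4f. Of 33 tested Hox genes, which record position along the body, 5 were called higher and 1 lower, 18.2% against 18.5% over all genes, and without Zscan4f replicate 3 or control replicate 3 the number called higher fell to as few as 2. Hoxc5 rose by 0.73 (adjusted p = 0.00031) and Hoxa7 by 0.33 (adjusted p = 0.009), while Hoxd13, of the end of the limb, fell by 0.21 (adjusted p = 0.0066). Tbx2 measured 27.3, 31.8 and 27.9 TPM in control and 48.5, 46.6 and 46.8 TPM with Zscan4f. Of 9 tested Sox genes, 0 were called higher and 4 lower, 1 of the latter tested only through the control libraries, and 2 were called lower with a filter at 5 TPM. Sox2, a reprogramming factor of the OSKM label, was called lower (adjusted p = 0.009, up to 0.034 without 1 library). The level of the reprogramming factors was thus not shown to be equal in the groups, and values of the others are not reported here.

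Cadherins other than Cdh1 fell where they were called, 12 of 48 tested, 9 of them whichever 1 library was left out. Among the 12, Cdh7 was tested only through the control libraries. With Cdh1, 27.1% of the tested family were called, against 18.5% over all genes. Cdh6 measured 12.7, 10.9 and 12.3 TPM in control and 5.76, 5.29 and 5.61 TPM with Zscan4f. Cdh10 fell by 0.78 (adjusted p = 3.9e-05), Cdh13 by 0.44 (adjusted p = 2.7e-05) and Cdh11, a cadherin of mesenchyme, by 0.27 (adjusted p = 0.00037). Tenm3, a teneurin that matches cells by adhesion, was among the larger falls, at 74.9, 79 and 79.4 TPM in control and 22.4, 18.6 and 21.3 TPM with Zscan4f. The spread within each group of Tenm3 was small beside the gap between them.

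Semaphorins and plexins were called higher in 4 and lower in 8 of 27 tested, and the 8 lower calls held whichever 1 library was left out. Sema3b measured 42.1, 42.2 and 43.4 TPM in control and 14.7, 18.3 and 16 TPM with Zscan4f, and Sema3a and Sema3d fell by 1.01 and 0.76 (adjusted p = 0.0074 and 0.00023). Their receptor Nrp1 fell by 0.65 (adjusted p = 5.9e-05) and Plxna4 by 0.76 (adjusted p = 0.00065), while Sema3c, the most abundant of those named, rose by 0.17 (adjusted p = 0.013). Among Eph receptors and ephrins, 2 of 18 tested were called higher and 6 lower, the former 1 without any 1 control or Zscan4f library. Ephb2 measured 11.2, 7.86 and 10.4 TPM in control and 3.47, 2.62 and 3.84 TPM with Zscan4f, and Epha1, a receptor of epithelia, measured 8.34, 7.13 and 6.07 TPM in control and 14.1, 14.4 and 12.5 TPM with Zscan4f. The 2 receptors moved in opposite directions and without overlap of the groups (log2 fold change -1.33 and 0.85, adjusted p = 0.00068 and 0.0015).

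Cytoskeletal genes moved in both directions. Tubulins, the subunits of microtubules, were called higher in 9 and lower in 0 of 18 tested, 6 of them whichever 1 library was left out. Tubb4a measured 8.53, 10.7 and 8.91 TPM in control and 20.8, 22.2 and 22.3 TPM with Zscan4f. The abundant Tubb5 and Tubb4b rose by 0.20 and 0.30 on the log2 scale (adjusted p = 0.0019 and 0.00061), and Tubg1, the gamma-tubulin of nucleation sites, rose by 0.32 (adjusted p = 0.0012). Smooth muscle contractile genes were called higher in 5 and lower in 8 of 25 tested, and the 8 lower calls held whichever 1 library was left out. Myh11, the smooth muscle myosin, measured 3.35, 4.1 and 3.67 TPM in control and 1.84, 1.47 and 1.82 TPM with Zscan4f, and Tagln fell from 589, 607 and 578 TPM to 443, 490 and 489 TPM. Its relative Tagln2 went the other way, from 224, 206 and 201 TPM to 324, 346 and 342 TPM, and Csrp2 rose by 0.51 (adjusted p = 0.00015). Srgap3 fell from 6.81, 7 and 6.75 TPM to 1.35, 1.04 and 1.15 TPM.

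Nucleotide synthesis and ribosome biogenesis genes were called higher or not called. Nucleotide synthesis supplies DNA and RNA, and of 29 purine and pyrimidine genes, all tested, 11 were called higher and 0 lower, 9 of them whichever 1 library was left out. Umps, which makes uridine monophosphate, measured 55.9, 55.9 and 56.5 TPM in control, 82.3, 83.8 and 80.9 TPM with Zscan4f and 61.6, 57.4 and 56.3 TPM with Zscan4f3A. Hprt, which salvages purines, measured 104, 97.7 and 104 TPM in control and 127, 125 and 125 TPM with Zscan4f. Rrm2, a subunit of ribonucleotide reductase, rose by 0.48 (adjusted p = 0.0021) and Nme2 by 0.25 (adjusted p = 0.00061). In ribosome biogenesis 12 of 50 tested genes were called higher and 0 lower, 24% against 18.5% over all genes. The count of 12 fell to 6 without Zscan4f replicate 3, and 5 calls held whichever 1 library was left out. Nip7 rose by 0.43 (adjusted p = 0.003) and Dkc1, the pseudouridine synthase dyskerin that also belongs to telomerase, by 0.37 (adjusted p = 0.006). Dkc1 measured 24.1, 22.8 and 22.9 TPM in control, 32.3, 30.7 and 28.4 TPM with Zscan4f and 28.8, 28.1 and 32 TPM with Zscan4f3A, the last overlapping with Zscan4f.

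Translation factors were called higher in 10 and lower in 1 of 43 tested, 25.6% against 18.5% over all genes. Of these calls 7 and 0 held whichever 1 library was left out, and without the trended prior variance 6 were called higher. Eif2s2, a subunit of the factor that brings the first tRNA, measured 165, 166 and 161 TPM in control and 217, 221 and 217 TPM with Zscan4f. Eif4a1, a helicase, rose by 0.26 (adjusted p = 0.0013). Of 24 aminoacyl-tRNA synthetase genes, 7 were called higher and 1 lower, 33.3% against 18.5% over all genes. Farsb and Kars of the higher ones, and the lower Lars, kept the call whichever 1 library was left out. Without Zscan4f replicate 1, 2 or 3 or control replicate 1 or 3 the number called higher fell by more than 1.5 times, to as few as 2.

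Lipid and membrane genes changed as well. Of 25 tested genes of fatty acid synthesis and desaturation, 10 were called higher and 3 lower, 8 and 1 of them whichever 1 library was left out. Without Zscan4f, Zscan4f3A or control replicate 2 the number called lower fell to 1. Elovl6, which lengthens palmitate, measured 14.2, 17.6 and 18.8 TPM in control and 31.8, 28.8 and 28.8 TPM with Zscan4f. Scd2, a desaturase, rose by 0.35 (adjusted p = 0.00013) and Acsl4, which activates polyunsaturated fatty acids, by 0.45 (adjusted p = 0.00049). Of 27 tested genes of sphingolipid synthesis, 3 were called higher and 4 lower, 25.9% against 18.5% over all genes. The higher ones were Sptssb, a small subunit of serine palmitoyltransferase, at 1.29, 1.52 and 1.22 TPM in control and 9.51, 9.07 and 8.47 TPM with Zscan4f (adjusted p = 2.7e-05), Ormdl2 and Smpd1, and these 3 calls held whichever 1 library was left out. Of the lower ones the calls of the ceramide synthases Cers6 and Cers4 held, and Ormdl3 and Acer3 lost theirs without any 1 control library or Zscan4f replicate 1 or 2, and Acer3 also without Zscan4f3A replicate 2 (adjusted p up to 0.13). Cers6 fell from 28.7, 25 and 32.6 TPM to 12.4, 9.37 and 14.2 TPM and Cers4 by 0.54 (adjusted p = 0.0024). Glutathione enzymes split: Gstm1, whose upstream stretch is shown above, measured 55.2, 54.5 and 54.1 TPM in control and 19.1, 22.7 and 21.9 TPM with Zscan4f, Gsta4 fell by 0.41 (adjusted p = 9.4e-05), and Gpx4, which protects lipids from peroxidation, rose from 822, 841 and 813 TPM to 996, 1013 and 1025 TPM. The Gstm genes are close copies of each other, so the value of Gstm1 may include reads of its relatives.

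Transport and lysosome genes moved in both directions. Of 210 tested solute carriers, 7 were tested only through the Zscan4f libraries, and 4 of these were called higher. Of the other 203, 23 were called higher and 25 lower. With the 7 included, 27 were called higher and 25 lower, 24.8% against 18.5% over all genes. Of these calls 17 and 17 held whichever 1 library was left out. Slc16a11, of the monocarboxylate transporter family, measured 12.5, 12.3 and 10.2 TPM in control and 24.5, 24.9 and 26.4 TPM with Zscan4f. Slc38a4, an amino acid transporter that is also imprinted, measured 38.3, 50.1 and 50 TPM in control and 18.9, 12.8 and 13.9 TPM with Zscan4f, with 54.1, 51.1 and 52.9 TPM in Zscan4f3A. The transferrin receptor Tfrc, which takes up iron, rose by 0.81 (adjusted p = 0.00085). Entpd1, which breaks down extracellular ATP, measured 3.31, 2.58 and 3.04 TPM in control and 12.5, 12.2 and 13.7 TPM with Zscan4f. Of 47 tested lysosome genes, 7 were called higher and 9 lower, 34% against 18.5% over all genes. Ctsk, a collagen-degrading cathepsin, was lower by 0.58 (adjusted p = 8.7e-05) and Gla, a glycosidase, higher by 0.64 (adjusted p = 0.0003). Of 23 tested chemokines and interleukins, 5 were called higher (Ccl2, Cxcl16, Ccl11, Il15 and Il33) and 2 lower (Cxcl12 and Il34), 30.4% against 18.5% over all genes. The calls of Ccl2, Cxcl16 and Cxcl12 held whichever 1 library was left out. The number called higher fell to as few as 2 without any 1 Zscan4f library or control replicate 1 or 3, and that called lower changed by over 1.5 times without any 1 control or Zscan4f library or Zscan4f3A replicate 1. Ccl2, which attracts monocytes, rose from 141, 144 and 148 TPM to 220, 222 and 217 TPM and Cxcl12 fell by 0.47 (adjusted p = 0.002). The macrophage marker sum was higher as well, through Cd68, with Cd14 lower and 5 other markers under 1 TPM in all 6 libraries, and its part in these values was not tested.

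Past the 10 largest changes in each direction, the genes ranked 11 to 22 by fold change, among those with a mean of at least 5 TPM in the higher group, belonged to several families. Among the rises were Gpr50, an orphan receptor, at 5.02, 6.18 and 5.04 TPM in control and 19.4, 20.7 and 17.1 TPM with Zscan4f, and Lbp, which binds bacterial lipopolysaccharide, at 7.87, 8.39 and 5.98 TPM and 22.2, 25.6 and 21.1 TPM. Ccdc141 rose by 1.51 on the log2 scale (adjusted p = 8.6e-06). Dkkl1 and Bex1 rose by 1.46 and 1.47 (adjusted p = 0.00022 and 0.0014). Tac1, the precursor of substance P, rose by 1.48 (SE 0.27, adjusted p = 0.0053) with widely spread Zscan4f libraries, at 6.57, 10.9 and 4.64 TPM.
Among the falls were Vit, vitrin of the matrix, at 93.1, 93.8 and 90.5 TPM in control and 26.8, 28.6 and 24.7 TPM with Zscan4f, and Serpina3n, a protease inhibitor, at 77.6, 82.1 and 79 TPM and 22.9, 25.9 and 27.3 TPM. Mcub, the inhibitory subunit of the mitochondrial calcium channel, fell by 1.77 (adjusted p = 5.5e-05) and Gria1, a glutamate receptor subunit, by 1.75 (adjusted p = 1.1e-05). Ociad2 fell from 54.5, 58.7 and 52.7 TPM to 15.1, 16.2 and 14 TPM. For each of these genes the control and Zscan4f libraries did not overlap, as the rule for ranking required.

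Among the most abundant genes called, beyond the collagens and proteoglycans above, Cd9, a membrane tetraspanin, measured 1404, 1418 and 1382 TPM in control and 1691, 1699 and 1659 TPM with Zscan4f. S100a6, a calcium-binding protein, rose by 0.24 (adjusted p = 0.0049). Fn1, fibronectin, fell from 1858, 1871 and 2166 TPM to 1681, 1542 and 1501 TPM, a log2 fold change of -0.32 with adjusted p = 0.011. Serpine2, a protease inhibitor of the cell surface, fell by 0.61 (adjusted p = 2e-06). A few genes crossed from near absence: 6 called genes had every control library under 0.5 TPM and every Zscan4f library at 2 TPM or more. Of these 1 was neither a Zscan4 gene nor a predicted locus, Cabp5, a calcium-binding protein, tested only through the Zscan4f libraries, at 0.363, 0 and 0.0655 TPM in control and 2.76, 3.6 and 2.31 TPM with Zscan4f. In the other direction 2 genes crossed, Hapln1 and Carns1, which makes carnosine. The latter, under 1 of its 2 identifiers in the files (ENSMUSG00000097064.2), was listed at 0 in each Zscan4f library against 2.83, 2.32 and 2.59 TPM in control.

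Several nuclear lists stood near or below the share of all genes. Splicing factors were called higher in 3 and lower in 1 of 51 tested (7 higher without Zscan4f3A replicate 3), DNA repair genes in 4 and 1 of 53, chromatin modifiers in 4 and 5 of 56 (1 and 3 without Zscan4f replicate 3, 2 and 3 without control replicate 1 or 3), and replication-dependent histones in 1 and 1 of 51 (3 lower without Zscan4f3A replicate 3). Of 325 tested zinc finger genes named Zfp, 9 were called higher and 19 lower, 8.62% against 18.5% over all genes. The 9 fell to 2 and the 19 to 9 without Zscan4f replicate 3, and both counts also fell by more than 1.5 times without Zscan4f replicate 2 or control replicate 1. Zfp521 fell by 0.73 (adjusted p = 9.2e-05), from 21.3, 21.2 and 22.5 TPM to 12.9, 11.8 and 13.2 TPM. Smarca2, a chromatin remodelling ATPase, fell by 0.53 (adjusted p = 0.0063), and Srsf2, a splicing factor, rose from 179, 170 and 170 TPM to 200, 195 and 204 TPM. Apex1 and Parp1, of base excision repair, rose by 0.42 and 0.25 (adjusted p = 0.0018 and 0.01). Cytosolic ribosomal proteins were called higher in 6 and lower in 0 of 74, a count of 16 without Zscan4f3A replicate 3, 2 without Zscan4f replicate 3 or control replicate 3, and 3 without Zscan4f replicate 2 or control replicate 2. Where a list named above had 0 members called in a direction by limma, 0 also reached an unadjusted p under 0.05 in that direction, except Tubgcp3 (lower, tubulins) and Prrx1 and Twist2 (higher, mesenchymal factors). Over the 79 lists and families together, 675 of 2515 tested genes were called, 325 higher and 350 lower, and 2247 of the called genes were on none of them.

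**Figure D5:**
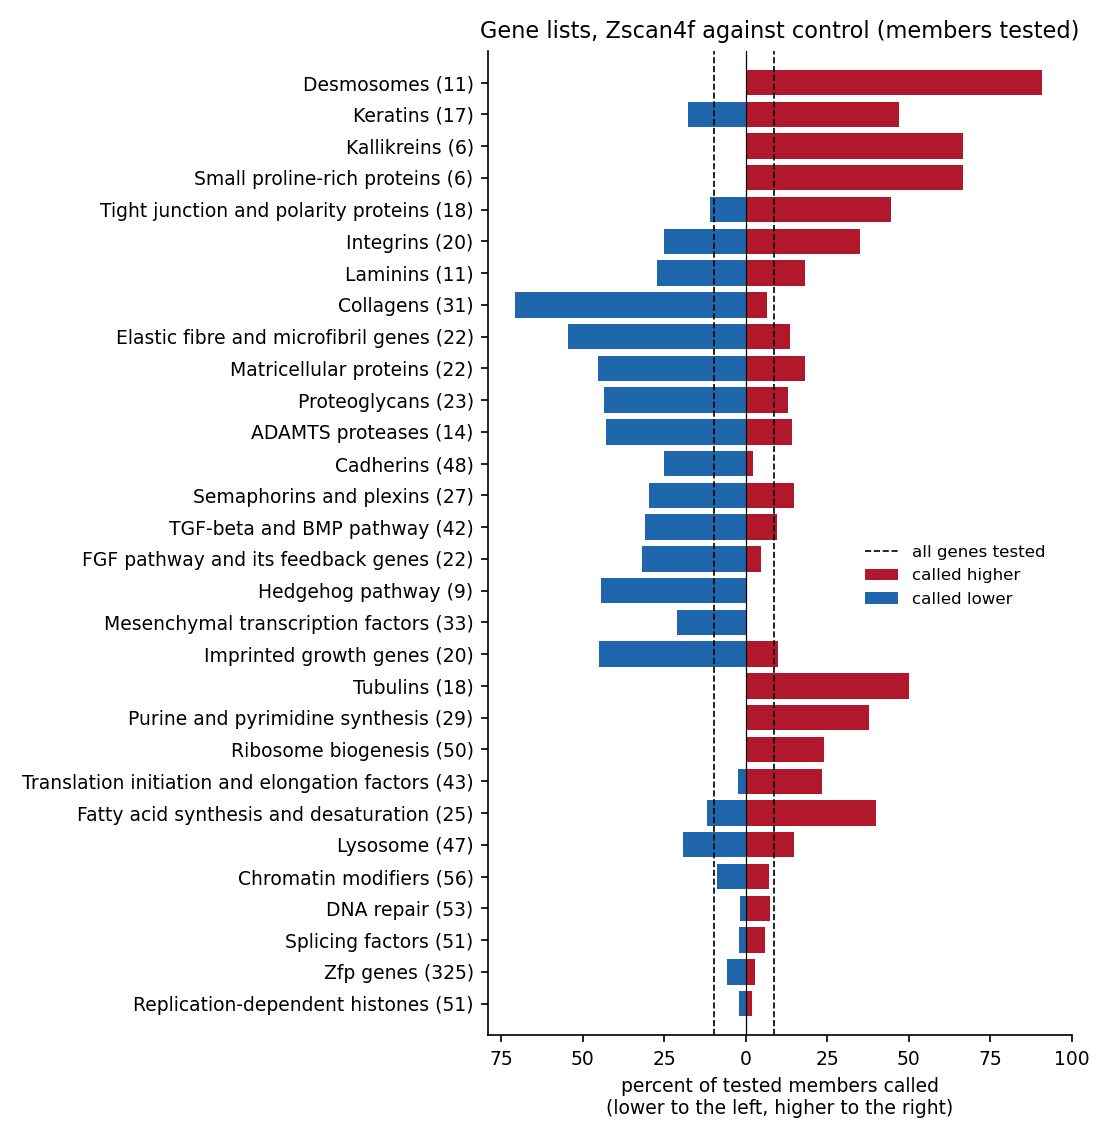
Percent of tested members called higher (to the right) and lower (to the left) for 30 gene lists and families, with the number tested in brackets and dashed lines at 8.74% and 9.71%, the shares among all genes tested. Desmosomes reach 90.9% to the right (Dsg2 and Pkp3, tested only through the Zscan4f libraries, included). Collagens extend farthest to the left (Col23a1 and Col9a3, tested only through the control libraries, included), while splicing factors, histones and Zfp genes lie inside the dashed lines.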

How the data were processed

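RNA of 9 libraries, 3 a group, was sequenced from kits of the TruSeq type, per the labels' protocols. Reads were aligned with HISAT2 2.1.0 and quantified with StringTie, per the submitters' processing notes, and the genome build was not stated in the labels or headers read here. Coordinates of 97.7% of 54165 matched gene IDs are identical to GRCm38. The deposited gene tables hold coverage, FPKM and TPM, per the file headers. Strand of counting is not stated, so antisense partners cannot be told apart, and reads of near-identical copies may be split.

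TPM values of 15 gene IDs listed more than once were summed, and genes with at least 1 TPM in 3 of 9 libraries (15837) were kept. A pseudocount of 1 was added, and limma 3.58.1 (R 4.3.3) was fitted to log2 values of all 9 libraries with group means and a trended prior variance (two-sided, Benjamini-Hochberg adjustment, threshold 0.05). Depth was estimated in each library as the most common ratio of coverage to FPKM over genes. Data were simulated with 200 changed genes of 15837, drawn only from genes with a mean above 5 TPM. Of those changed by 0.5 on the log2 scale 67% were recovered, and of those changed by 1, 91%. In the same simulation 7 unchanged genes were called. Recovery was not measured for genes under 5 TPM, which were called least often in the real data (11.4%).

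The gene lists, and the choice of this comparison, were made with earlier results of these data known. Named by rule were the genes ranked up to 22 in each direction, although the plan covered only ranks 11 to 22. Also named were the most abundant called genes, genes that crossed between under 0.5 and 2 TPM, and the 3 smallest p-values of each list. Besides these, 125 of the 276 genes in the text are other members of the lists, markers or the Zscan4 cluster, chosen after their values were seen. Sox2, also chosen after its values were seen, is not counted among the 276. Some results are not reported here. Figures were drawn with matplotlib 3.10.9.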

Additional observations from a re-analysis of the deposited data

How the results depend on the processing

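The number of genes called changed by over 1.5 times under 1 of the settings tried, the added demand of a 1.5-fold change, which left 891 genes, 376 higher and 515 lower. Leaving out 1 library gave 2126 to 3285 called genes, 950 to 1582 higher and 1170 to 1703 lower, lowest without Zscan4f replicate 3 in the total and highest without Zscan4f3A replicate 3. No gene among the 2922 called changed sign under any setting. Of 276 genes in the text, Col5a2, which was not called, changed sign, to 0.0119 with FPKM, 0.0041 with median-of-ratios scaling, and between -0.0112 and 0.0094 when 1 library was left out (above 0 without Zscan4f replicate 2 or, at 0.0012, without control replicate 2). The cause was not tested.

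With the replicate number as a block, 2504 genes were called, 1155 higher and 1349 lower, and 2402 of the 2922 remained. Control and Zscan4f libraries of the same number did not deviate together (r of -0.0792, -0.0137 and -0.0162 over genes). Each r rests on deviations from means of few libraries, and the labels name no pairing, so whether same-numbered libraries were paired is unknown. The planned comparison of promoter motif shares was not run, since windows were matched for 79.4% of tested protein-coding genes. The files hold no counts, so no counting error could be given, and genes under 5 TPM were called least often (11.4%).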
